A study of Homo sapiens with 4 samples.

Results

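Keratin and tight junction transcripts were examined in H1299, a human line from a non-small cell lung cancer, with and without targeting of TTC28. The group holds 9 genes, taken by name from a table of 58735 genes: the keratins KRT7, KRT8, KRT80, KRT18 and KRT19, and the tight junction genes CLDN1, OCLN, TJP1 and TJP3. RNA sequencing gave 4 libraries, 2 of wild-type (WT) cells and 2 of TTC28 knockout (TTC28-KO) cells made with CRISPR/Cas9. All 4 came from untreated cells of the same line, grown in the same serum-containing medium. The labels do not say whether the knockout cells are a single clone, nor whether replicates were separate cultures, so that p-values measure only the spread between these libraries. Of the 9 genes, 8 were tested, since they reached 1 FPKM in 2 or more libraries, and KRT19 was not. FPKM is the number of fragments scaled to gene length and library size, so that levels of different genes can be set side by side.

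Keratins are the intermediate filament proteins of epithelial cells. They form obligate pairs of a type I and a type II protein, and in simple epithelia such as those of the lung the usual pair is KRT8 (type II) with KRT18 (type I), joined by the type II keratin KRT7 and the type I keratin KRT19. KRT80 is a type II keratin found near desmosomes and the cell edge. Tight junctions seal neighbouring epithelial cells: claudins such as CLDN1 build the strands, occludin (OCLN) is a further membrane protein of the strand, and the zonula occludens proteins TJP1 (ZO-1) and TJP3 (ZO-3) are scaffolds that tie the strand to actin.

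The libraries held 25120500 to 28885443 counts, and 13079 genes were tested. TTC28, the targeted gene, was at 4.88 and 5.44 FPKM in the WT libraries and at 2.96 and 2.99 FPKM in the knockout libraries, a ratio of 0.577 (adjusted p = 2.78e-06), so that its transcript was lower but still present. Such a count says nothing of the edited site or of the protein. Markers of other cell types were low: summed over 7 genes each, leukocyte markers reached at most 0.718 FPKM in a library, endothelial markers 0.991 and fibroblast markers 0.707, and none of these genes passed the filter. The 12 lung lineage markers summed to at most 0.495 FPKM, with no count in any library for 5 of them.

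RefSeq promoter windows, 300 bases from upstream to just downstream of an annotated start (GRCh38.p14), were given for 5 of the 9 genes: KRT8, CLDN1, TJP1, TJP3 and OCLN. The windows of CLDN1, KRT8 and TJP3 are shown because these genes changed most among those 5, CLDN1 downward and the others upward. Capitals mark matches, on either strand, to the GC box GGGCGG or the E-box CACCTG. The windows lie at chr3:190322397-190322696 (CLDN1, minus strand), chr12:52926420-52926719 (KRT8, minus strand), chr19:3708134-3708433 (TJP3, first entry, plus strand) and chr19:3721487-3721786 (TJP3, second entry, plus strand).
CLDN1: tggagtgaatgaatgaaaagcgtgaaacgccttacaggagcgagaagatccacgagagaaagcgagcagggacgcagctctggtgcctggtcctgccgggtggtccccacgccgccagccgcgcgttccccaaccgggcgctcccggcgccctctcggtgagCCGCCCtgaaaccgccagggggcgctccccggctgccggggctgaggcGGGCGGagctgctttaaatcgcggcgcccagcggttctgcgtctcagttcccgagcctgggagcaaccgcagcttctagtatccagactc
KRT8: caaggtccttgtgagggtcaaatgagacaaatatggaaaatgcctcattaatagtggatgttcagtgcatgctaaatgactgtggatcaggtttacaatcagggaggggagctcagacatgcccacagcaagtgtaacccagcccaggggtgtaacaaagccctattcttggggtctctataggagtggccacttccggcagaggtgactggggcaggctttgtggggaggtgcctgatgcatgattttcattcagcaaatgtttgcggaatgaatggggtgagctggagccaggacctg
TJP3, first entry: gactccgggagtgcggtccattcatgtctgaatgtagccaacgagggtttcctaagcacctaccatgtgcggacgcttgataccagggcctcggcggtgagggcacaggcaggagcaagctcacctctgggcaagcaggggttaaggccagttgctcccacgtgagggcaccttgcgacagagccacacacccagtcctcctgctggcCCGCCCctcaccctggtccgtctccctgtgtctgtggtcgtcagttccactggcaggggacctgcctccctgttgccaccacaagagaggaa
TJP3, second entry: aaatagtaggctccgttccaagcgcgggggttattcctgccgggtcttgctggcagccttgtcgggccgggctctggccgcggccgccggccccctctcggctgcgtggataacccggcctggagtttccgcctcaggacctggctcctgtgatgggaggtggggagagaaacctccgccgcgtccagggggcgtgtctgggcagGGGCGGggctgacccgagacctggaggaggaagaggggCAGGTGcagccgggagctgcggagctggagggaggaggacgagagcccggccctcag

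The CLDN1 window had 67.0% G and C and 2 GC boxes, while the KRT8 window had 50.7% G and C and no match to either motif. The KRT8 window lies inside the annotated gene (chr12:52897187-52949954, minus strand), away from its outermost start. Whether KRT8 transcripts of these cells begin there was not tested. The TJP3 windows had 62.3% and 70.3% G and C with 1 GC box each, and the second also held 1 E-box. A GC box was present in 45.0% of 35116 promoter windows of this length and an E-box in 20.6%. The AP-1 motif TGANTCA, present in 7.71% of all windows, was found in none of these 4. A match describes letters in a window and shows no binding.

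Of the 8 tested genes, 4 were higher in the knockout (KRT8, KRT18, KRT80 and TJP3), 2 were lower (KRT7 and CLDN1) and 2 did not pass the test (OCLN and TJP1). A gene was called where its p from the quasi-likelihood test of edgeR, adjusted by the Benjamini-Hochberg method over all tested genes, was under 0.05, and every adjusted p given here comes from it unless another tool is named. By the same rule 50.3% of all tested genes were called, 25.1% higher and 25.2% lower, so that 6 called of 8 has to be read against a background in which many genes differed. KRT7, CLDN1 and TJP3 were called with at least a 2-fold difference, as were 5.21% of all tested genes. The members were chosen with earlier results of these data known, and KRT7 passed the filter only through WT. The 2 shares therefore cannot be compared as a test. The median log2 fold change was 0.12 over the 8 genes and -0.00 over all tested genes. The CPM values (counts scaled to library size) of the groups did not overlap for the 6 called members, as for 75.5% of all tested genes.

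**Figure D1:**
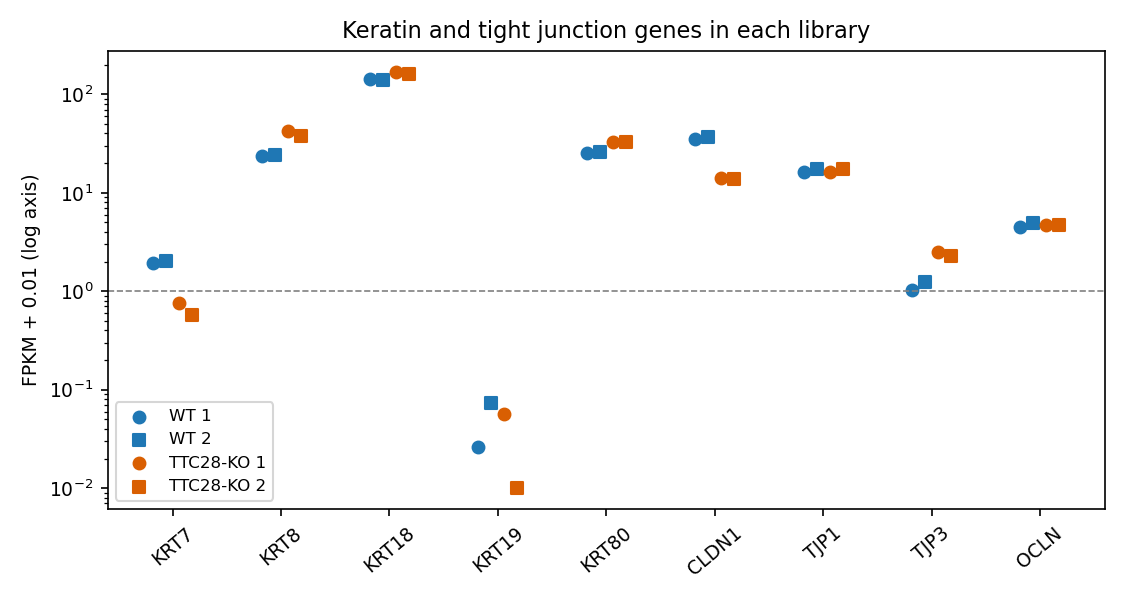
FPKM of the 9 genes in each of the 4 libraries, plotted as FPKM + 0.01 on a log axis with a dashed line at the filter of 1 FPKM. CLDN1 and KRT7 sit lower in both knockout libraries, KRT8 and TJP3 higher, and KRT19 lies far below the line in all 4.

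**Figure D2:**
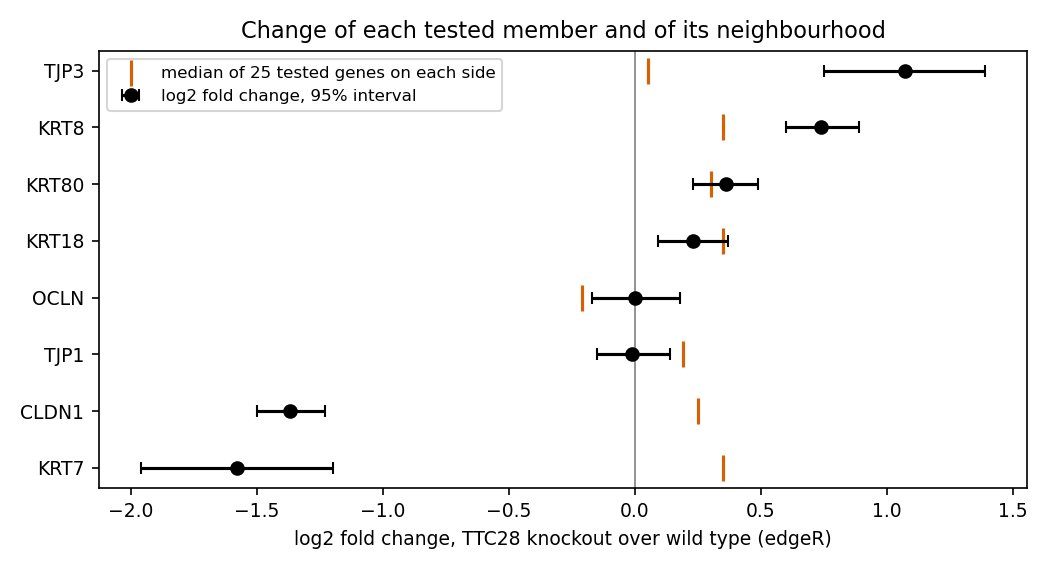
Log2 fold change of each tested gene, knockout over WT, with its 95% interval (points and bars), and the median log2 fold change of the 25 tested genes on each side along the chromosome (ticks). The KRT80 and KRT18 intervals include their ticks at 0.30 and 0.35. Those of KRT7, CLDN1, TJP3 and KRT8, and those of TJP1 and OCLN, which did not pass, do not include theirs.

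KRT8, the type II keratin of the simple epithelial pair, rose (ENSG00000170421, hg38 chr12:52897187-52949954, minus strand). It was at 23.7 and 24.1 FPKM in the WT libraries and at 42.0 and 37.8 FPKM in knockout replicates 1 and 2, from 4269, 4513, 8062 and 6353 counts. Both knockout libraries lay above both WT libraries. The group means were 23.9 ± 0.283 FPKM (SD, n = 2) and 39.9 ± 3.0 FPKM (SD, n = 2), a 1.68-fold rise (log2 fold change 0.74, SE 0.0657, adjusted p = 1.31e-06). The 25 tested genes on each side of KRT8 had a median log2 fold change of 0.35, and KRT8 less this local median came to 0.40.

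KRT18, the type I partner, rose by far less (ENSG00000111057, chr12:52948871-52952901, plus strand). Its level was the highest of the 9 genes, at 144 and 138 FPKM in WT and 170 and 161 FPKM in the knockout libraries. The groups did not overlap, but the gap between the nearest libraries was small beside the level. Its rise was 0.23 on the log2 scale (SE 0.0647, adjusted p = 0.0099), or 1.17-fold. Without WT replicate 2 it was 0.19 and did not pass (adjusted p = 0.117). On a TPM scale, which moved the median of all tested genes to -0.16, it was 0.06 and did not pass (limma adjusted p = 0.5). Over all alternatives with a test its adjusted p ran from 0.00116 to 0.5. The local median was 0.35, larger than the rise of KRT18 itself, which came to -0.12 with the local median removed.

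KRT7, a type II keratin of simple and glandular epithelia, fell (ENSG00000135480, chr12:52232520-52252186, plus strand). It was at 1.94 and 2.02 FPKM in WT and at 0.745 and 0.570 FPKM in the knockout libraries, from 208, 225, 85 and 57 counts. Both WT libraries lay above the filter of 1 FPKM and both knockout libraries below it, so that KRT7 was tested only through the group where it was high. The log2 fold change was -1.58 (SE 0.175, adjusted p = 9.37e-06), 2.98-fold lower. Summed counts of 433 against 142 gave a ratio of 0.336 (95% exact interval 0.276 to 0.407, counting error only). The local median was 0.35, in the opposite direction.

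KRT80, the type II keratin of the cell edge, rose slightly (ENSG00000167767, chr12:52168996-52192000, minus strand). It was at 25.4 and 26.1 FPKM in WT and at 33.1 and 32.9 FPKM in the knockout libraries, and the groups lay apart. Its log2 fold change was 0.36 (SE 0.0596, adjusted p = 0.000247), or 1.28-fold, against a local median of 0.30, which left 0.06. KRT80 and KRT7 are neighbours, 40520 bases apart, and moved in opposite directions. The nearest tested gene on the other side of KRT80 is the autophagy gene ATG101, which fell (-0.49, adjusted p = 0.000433), and the nearest beyond KRT18 is the translation factor gene EIF4B, which rose (0.67, adjusted p = 5.81e-06).

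KRT19, the small type I keratin of simple epithelia, was barely present (ENSG00000171345, chr17:41523617-41528308, minus strand). It had 1, 4, 3 and 0 counts, at most 0.0629 FPKM, and the 0 counts of knockout replicate 2 allow up to 3. The ratio of summed counts, 0.614, had a 95% exact interval of 0.0954 to 3.16, so that no difference was detectable at this depth.

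Among the member keratins, the ratio of type II to type I transcripts was higher in both knockout libraries. The type I keratins KRT10 and KRT15, which are not members, were left out of it. Summed FPKM of KRT7, KRT8 and KRT80 were 51.0 and 52.2 in WT and 75.9 and 71.2 in the knockout libraries, while KRT18 and KRT19 together gave 144, 138, 170 and 161. The type II to type I ratio was 0.366 ± 0.0174 (SD, n = 2) in WT and 0.446 ± 0.00301 (SD, n = 2) in knockout libraries, with values of 0.354, 0.378, 0.448 and 0.444. The ratios of the groups did not overlap. With 2 libraries a group no exact test can pass the threshold, and none was made.

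Within the balance, the KRT8 to KRT18 ratio of FPKM was 0.164 and 0.174 in WT and 0.248 and 0.235 in the knockout libraries. KRT7 shrank from 0.0819 and 0.0838 of KRT8 to 0.0177 and 0.0151. The KRT80 to KRT8 ratio was 1.07 and 1.08 in WT and 0.789 and 0.869 in the knockout libraries. These levels depend on the gene lengths of the table, 6881 bases for KRT8 and 3218 for KRT18, where the longest principal transcripts have 2126 and 1562. With those principal lengths, an alternative chosen after seeing the data, the KRT8 to KRT18 ratio was 0.266 in WT and 0.380 in the knockout, and the KRT80 to KRT8 ratio 0.376 and 0.289, so that KRT80 then lay below KRT8 in both groups.

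Reads of KRT8 and KRT18 are not fully separable. The genes lie on opposite strands and share 525 exonic bases, 7.63% of KRT8 and 16.3% of KRT18, and whether the counting used strand is not stated. KRT8 has 50 pseudogenes in the table, 16 of them with a count, whose summed counts of 586, 561, 723 and 645 equal 13.7, 12.4, 8.97 and 10.2% of those of KRT8. Most were assigned to KRT8P12, with 489, 485, 591 and 537 counts (log2 fold change 0.25, SE 0.0924, adjusted p = 0.0398). KRT8P12 is 90.6% identical to the coding sequence of KRT8 over 1385 aligned bases. Of all 50-base windows of the KRT8 coding sequence, 0.286% occurred unchanged in KRT8P12. The 67 pseudogenes of KRT18 held at most 0.523% of the counts of KRT18 in a library. With the pseudogene counts added, KRT8 had a log2 fold change of 0.70 and KRT18 of 0.23.

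Among the other keratins, H1299 cells expressed few. The cluster on chromosome 12 holds 27 keratin genes between KRT80 and KRT18, of which 4 were tested, all members, and 16 had no count in any library. All 23 other type II keratins stayed under the filter, with a summed level of 0.778 and 0.792 FPKM in WT and 0.275 and 0.184 FPKM in the knockout libraries. The largest part in the WT libraries came from KRT86, KRT81 and KRT83, hair keratins next to KRT7, named after their values were seen. The span of KRT86 (chr12:52249300-52309163, plus strand) overlaps that of KRT7 on the same strand, with no shared annotated exonic bases. KRT86 had 23, 26, 14 and 5 counts, KRT81 had 12, 7, 2 and 0, and KRT83 had 7, 9, 0 and 0. These counts were lower in both knockout libraries, as were those of KRT7. The summed level of the untested keratins on chromosome 17 was lower in both as well. With a filter of 0.1 FPKM, which let the 3 genes be tested, all 3 fell, with adjusted p = 0.0401 for KRT86, adjusted p = 0.0263 for KRT81 and adjusted p = 0.00659 for KRT83. KRT81 and KRT83 passed that filter only through the WT libraries, so that they were tested only through the group where they were high. Whether reads are shared among these 3 hair keratins or with KRT7 was not tested.

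The cluster on chromosome 17 holds 28 genes, of which KRT15 and KRT10 were tested. Its untested genes summed to 1.36 and 1.19 FPKM in WT and to 0.632 and 0.579 FPKM in the knockout libraries. Among them, named after their values were seen, KRT34 had 39, 32, 24 and 17 counts and KRT32 had 18, 21, 4 and 3. KRT15, a type I keratin of basal cells that lies 1088 bases from KRT19, rose from 2.04 and 2.08 FPKM to 3.92 and 3.93 FPKM (log2 fold change 0.94, SE 0.0894, adjusted p = 2.58e-06). KRT10, the type I keratin of differentiating epidermis, fell from 10.1 and 9.47 FPKM to 5.97 and 3.97 FPKM (log2 fold change -0.96, SE 0.147, adjusted p = 0.000129). KRT15 and KRT10 therefore moved in opposite directions within the same cluster, at local medians of -0.06 and -0.05.

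**Figure D3:**
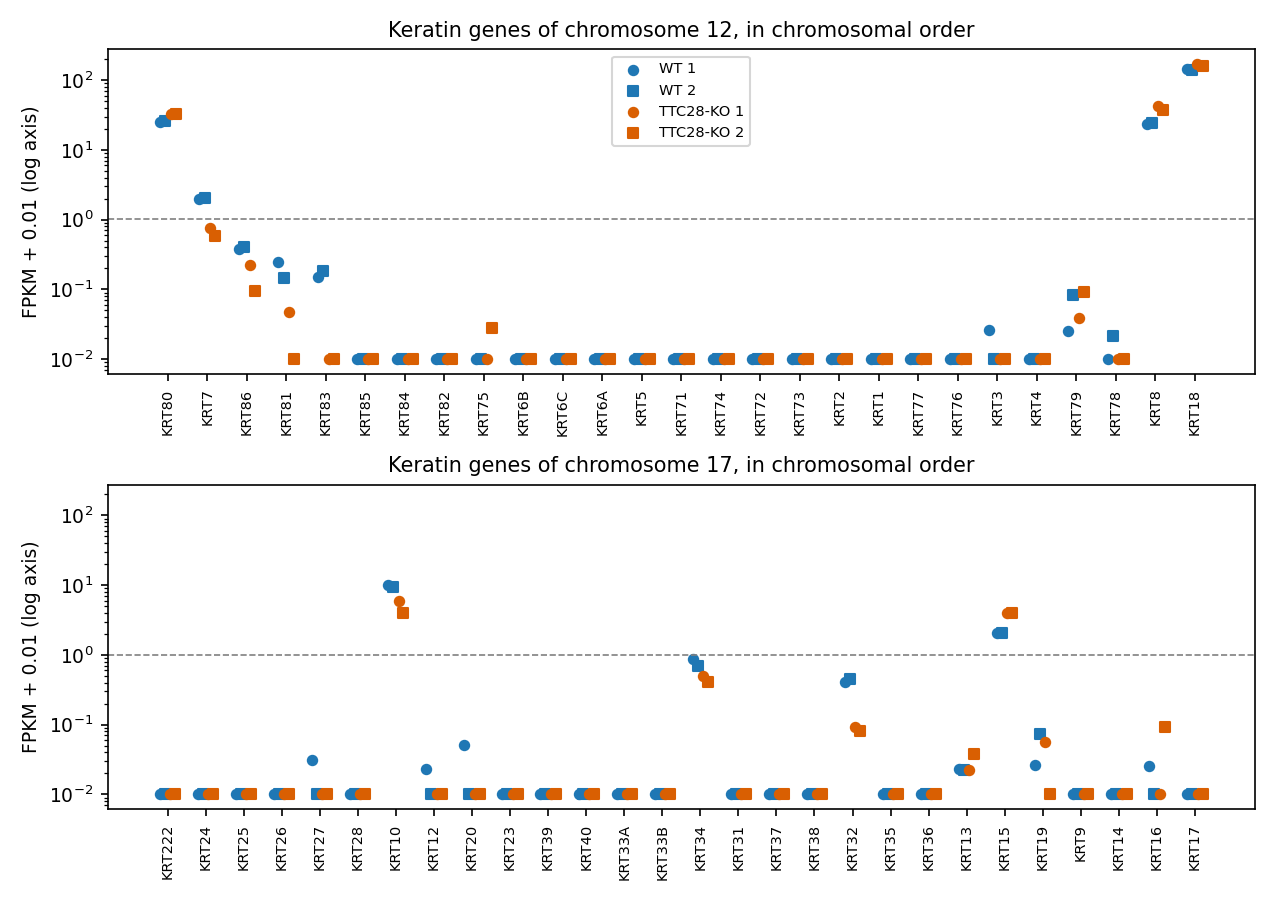
FPKM of the keratin genes in their order along the clusters on chromosomes 12 and 17, by library, with a dashed line at 1 FPKM. Only KRT80, KRT7, KRT8 and KRT18 on chromosome 12, and KRT10 and KRT15 on chromosome 17, were tested, and the other genes lie under the line.

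Of 13 tested genes among other intermediate filament proteins and linkers, 7 rose, 2 fell and 4 did not pass, with a median of 0.20 against -0.00 over all genes, and with 50.3% of all tested genes called. PPL, the plakin periplakin, rose from 7.52 and 8.30 FPKM to 20.7 and 19.2 FPKM (log2 fold change 1.34, SE 0.0688, adjusted p = 1.16e-08). DSP, desmoplakin, which ties intermediate filaments to the desmosome, rose from 11.5 and 12.8 FPKM to 22.0 and 21.9 FPKM (0.86, SE 0.0651, adjusted p = 3.7e-07). The desmosomal plakophilin PKP2 also rose (0.64, SE 0.0879, adjusted p = 5.36e-05). INA, a neuronal intermediate filament gene, fell from 39.9 and 39.2 FPKM to 29.4 and 28.1 FPKM (-0.46, SE 0.0612, adjusted p = 4.54e-05). On the TPM scale the list had 5 rises and 2 falls, with a median of 0.03.

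CLDN1, the strand-forming claudin with the highest FPKM of the claudins in WT, was the only tight junction member that fell (ENSG00000163347, chr3:190305701-190322475, minus strand). It was at 35.5 and 36.8 FPKM in WT and at 14.2 and 13.8 FPKM in the knockout libraries, from 3403, 3669, 1447 and 1233 counts. The groups were far apart, at 36.1 ± 0.930 FPKM (SD, n = 2) and 14.0 ± 0.277 FPKM (SD, n = 2). The log2 fold change was -1.37 (SE 0.0632, adjusted p = 4.8e-09), 2.58-fold lower, and its local median was 0.25. The nearest tested gene before it, the collagen prolyl hydroxylase gene P3H2, 183 kb away, also fell (-1.30, SE 0.0907, adjusted p = 1.77e-07). IL1RAP, an interleukin receptor subunit gene 192 kb after it, was at 0.22 and did not pass (adjusted p = 0.0861).

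OCLN, occludin, did not pass the test (ENSG00000197822, chr5:69492292-69558104, plus strand). It was at 4.52 and 4.89 FPKM in WT and at 4.73 and 4.69 FPKM in the knockout libraries, and the knockout values lay inside the WT range. The log2 fold change was 0.00 (SE 0.0819, adjusted p = 0.973), and the 95% interval of the ratio ran from 0.887 to 1.13. Its local median was -0.21, so that OCLN stood 0.21 above its neighbours. Of its flanking tested genes, the checkpoint gene RAD17 was at -0.07 and did not pass (adjusted p = 0.469), and GTF2H2C, a transcription factor subunit gene, fell (-0.41, adjusted p = 0.00159).

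TJP1, the scaffold ZO-1, did not pass either (ENSG00000104067, chr15:29699367-29968865, minus strand). It was at 16.2 and 17.6 FPKM in WT and at 16.1 and 17.5 FPKM in the knockout libraries, and the groups overlapped. The log2 fold change was -0.01 (SE 0.0673, adjusted p = 0.945), with an interval of the ratio from 0.9 to 1.1. Differences within these intervals cannot be told from none for OCLN or TJP1. Of the flanking tested genes of TJP1, the antisense gene AC022613.1, 18.4 kb away, rose (0.60, SE 0.136, adjusted p = 0.00249). The pseudogene HMGN2P5, which overlaps the span of TJP1, was at -0.28 and did not pass (adjusted p = 0.431).

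TJP3, the scaffold ZO-3 of epithelial junctions, rose from a low level (ENSG00000105289, chr19:3708109-3750813, plus strand). It was at 1.02 and 1.23 FPKM in WT and at 2.48 and 2.25 FPKM in the knockout libraries, from 113, 141, 291 and 232 counts. Both knockout libraries lay above both WT libraries. The log2 fold change was 1.07 (SE 0.148, adjusted p = 5.62e-05), a 2.10-fold rise, against a local median of 0.05. Its flanking tested genes PIP5K1C (0.10) and APBA3 (-0.08, 6 bases away) did not pass.

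Most other claudins that could be tested were higher in the knockout, where CLDN1 was lower. Of 22 other claudins, 6 were tested, of which 5 rose and CLDN15 did not pass (-0.21, adjusted p = 0.0543), against 25.1% of all tested genes called higher. CLDN23 had the smallest p (1.62, SE 0.196, adjusted p = 1.94e-05), from 0.827 and 0.965 FPKM to 2.55 and 2.96 FPKM. CLDN4, a barrier-forming claudin, rose from 0.804 and 0.867 FPKM to 1.66 and 1.65 FPKM (0.98, SE 0.154, adjusted p = 0.000153). CLDN3, its neighbour on chromosome 7, rose from 1.38 and 1.64 FPKM to 2.82 and 3.70 FPKM (1.10, SE 0.225, adjusted p = 0.00121). CLDN10, a channel-forming claudin, rose as well (1.40, SE 0.246, adjusted p = 0.000393). CLDN23, CLDN4 and CLDN10 passed the filter only through the knockout libraries, so that a count over the tested claudins leans to rises. All 4 lay under 4 FPKM in every library, below CLDN1 even after its fall. CLDN12 was the fifth to rise (0.18, adjusted p = 0.035), and did not pass without WT replicate 1, WT replicate 2 or knockout replicate 2, nor with DESeq2, limma, total-count scaling, no filter or the 0.1 FPKM filter, where 4 claudins rose. With the 0.1 FPKM filter these were 4 of 11 tested, at a median of 0.18. CLDN15 was called lower with total-count scaling, on the TPM scale and with a replicate block (adjusted p = 0.0421).

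Of 5 tested genes for other tight junction membrane proteins, 3 rose, 0 fell and 2 did not pass, with a median of 0.26. JAM2, a junctional adhesion molecule, rose from 0.431 and 0.371 FPKM to 1.15 and 1.13 FPKM (1.51, SE 0.178, adjusted p = 1.55e-05), and passed the filter only through the knockout. JAM3 (0.26, adjusted p = 0.00547) and F11R (0.39, adjusted p = 0.00772), of the same family, rose by less. CXADR, a related adhesion protein, was at 0.20 and did not pass (adjusted p = 0.155). Without WT replicate 1 only JAM2 rose, JAM3 (adjusted p = 0.0751) and F11R (adjusted p = 0.0748) losing their calls, and on the TPM scale 1 of the 5 rose. The 3 of 5 called stand against 50.3% of all tested genes.

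Of 24 tested plaque and polarity genes, 9 rose, 2 fell and 13 did not pass, with a median of 0.11. These 11 called of 24 are near the 50.3% of all tested genes called. YBX3, the ZO-1-associated nucleic acid binding protein ZONAB, fell from 84.1 and 85.3 FPKM to 49.7 and 52.6 FPKM (-0.72, SE 0.0652, adjusted p = 1.54e-06). CGN, cingulin, a cytoplasmic plaque protein, rose from 3.14 and 3.10 FPKM to 4.82 and 4.82 FPKM (0.63, SE 0.0828, adjusted p = 3.88e-05). Its paralog CGNL1 rose from 0.555 and 0.627 FPKM to 1.52 and 1.61 FPKM (1.40, SE 0.132, adjusted p = 2.19e-06), passing the filter only through the knockout. LLGL2, a basolateral polarity protein, rose too (0.67, SE 0.0928, adjusted p = 6.26e-05). Without WT replicate 1 the count was 6 higher and 1 lower. The direction of this list as a whole was not stable, since on the TPM scale 5 rose, 4 fell and the median was -0.07.

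**Figure D4:**
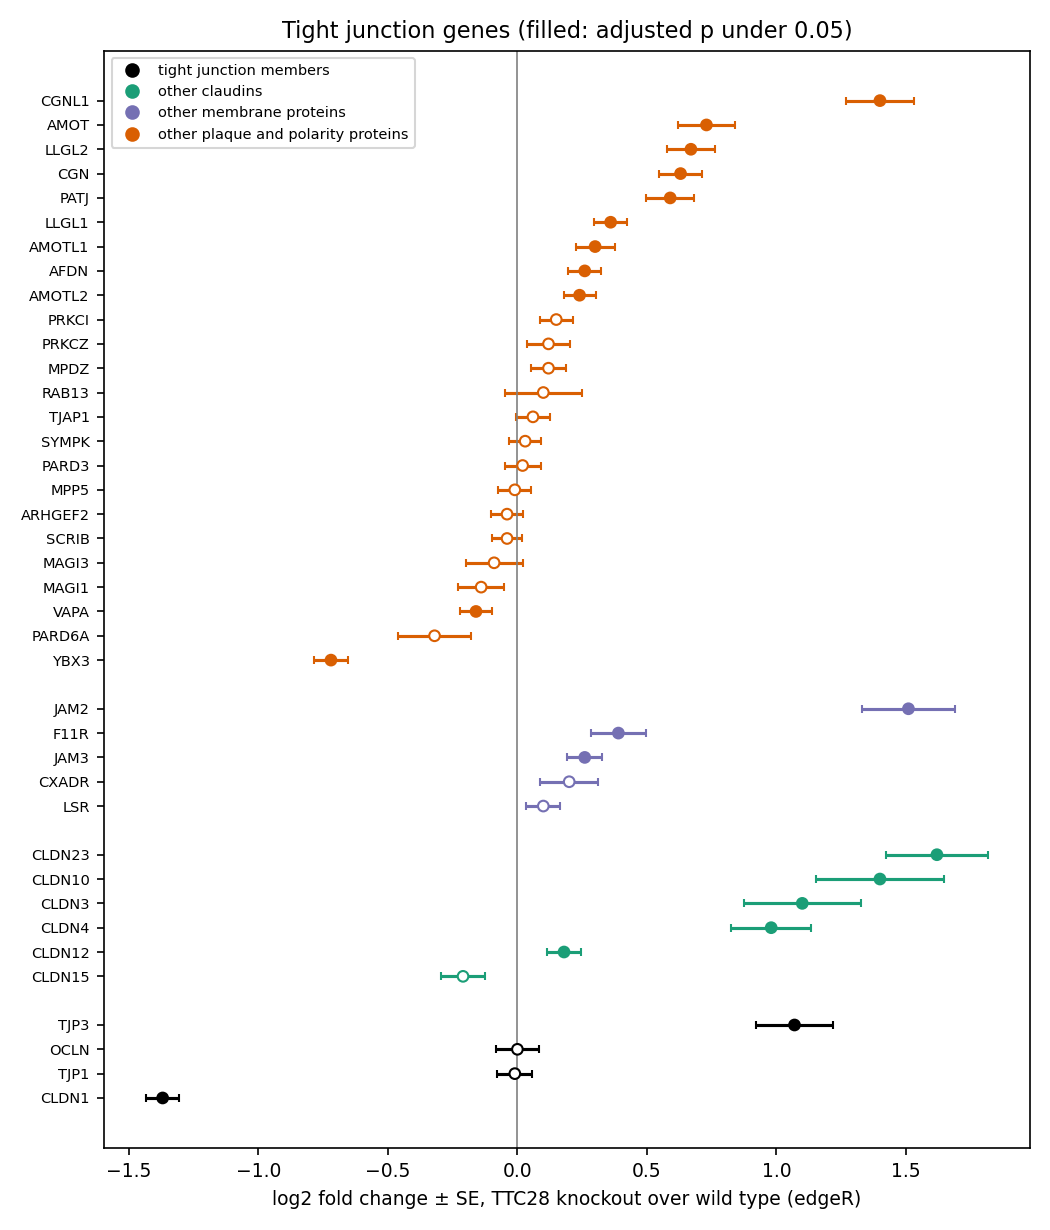
Log2 fold change, knockout over WT, of the tested tight junction genes, with bars of ± SE. The groups are tight junction members, other claudins, other membrane proteins, and plaque or polarity proteins. CLDN1 at -1.37 lies apart from the other claudins, of which 5 rose.

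Genes that mark epithelial identity mostly stayed under the filter, in both groups. Of 15 such genes 3 were tested: KLF5 (0.70, adjusted p = 0.000371) and MUC1 (0.46, adjusted p = 0.0212) rose, and KLF4 fell (-0.49, adjusted p = 9.39e-05). MUC1 did not pass with DESeq2 (adjusted p = 0.0784), with limma on any scale, without WT replicate 2 or without knockout replicate 2 (adjusted p = 0.0683 to 0.185 over these settings). CDH1, the epithelial cadherin, had 0, 1, 0 and 0 counts, and EPCAM had 2, 3, 15 and 2. The mesenchymal filament gene VIM was at 316 and 300 FPKM in WT and at 366 and 353 FPKM in the knockout libraries (0.23, SE 0.071, adjusted p = 0.017). The 5 keratins summed to 0.619 and 0.635 of VIM in WT and to 0.672 and 0.656 in the knockout. Of 7 tested mesenchymal genes, 3 rose, 2 fell and 2 did not pass, with FN1, fibronectin, at -1.34 (adjusted p = 1.12e-07), TWIST1 at -0.70 (adjusted p = 0.000517) and CDH2, the neural cadherin, at 0.31 (adjusted p = 0.00322). Without WT replicate 2, and also with total-count scaling, 1 rose, and on the TPM scale none of the 7 rose, with 2 falls in each. PRRX1, a mesenchymal transcription factor gene under the filter, had 411 counts in WT and 9 in the knockout, a ratio of 0.0224 (95% exact interval 0.0102 to 0.043). It fell where the 0.1 FPKM filter let it be tested (adjusted p = 1.91e-08), and passed that filter only through WT. With that filter 3 of 11 tested mesenchymal genes rose and 4 fell. ZEB2 was at 0.28 (adjusted p = 0.0164), in a neighbourhood with a local median of 0.55, and did not pass with total-count scaling, with limma on any scale, without WT replicate 2 or without knockout replicate 2 (adjusted p = 0.0521 to 0.608 over these settings).

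The order of the 9 genes by mean FPKM differed between the groups. In WT it ran from KRT18 through CLDN1, KRT80, KRT8, TJP1, OCLN, KRT7 and TJP3 to KRT19. In the knockout CLDN1 came after KRT8, KRT80 and TJP1, and KRT7 came after TJP3. In neither group did the library values of neighbours in the order overlap. The place of KRT8 in WT depends on its length: with principal transcript lengths, chosen after seeing the data, KRT8 followed KRT18 in both groups, at 77.3 and 129 FPKM, while CLDN1 still came before KRT80 and TJP1 in WT and after both in the knockout.

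The tested members did not all change in the same direction. Over the 4 libraries, the nearest tested protein-coding gene, by Euclidean distance between centred log2 CPM profiles, was VSTM2L for KRT7 (0.0619), TMEM150C for KRT8 (0.0333), SLC25A29 for KRT18 (0.0164) and PPIP5K2 for KRT80 (0.0154). For the tight junction genes it was BHLHE41 for CLDN1 (0.0222), PRRC2C for TJP1 (0.0102), ADAMTS3 for TJP3 (0.0546) and RAPGEF6 for OCLN (0.00448). No member had another member as its nearest gene. With only 8 of 13079 tested genes being members, that was likely whatever the members did. It does not show that their profiles differ. For KRT8 the nearest member was TJP3, with 1333 genes at least as near, and for KRT7 it was CLDN1, with 22.

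The authors' deposited table, made from the same libraries and so no independent check, gave the same directions for the called members. Its log2 fold changes were -1.60 for KRT7, 0.73 for KRT8, 0.21 for KRT18 and 0.35 for KRT80. For CLDN1 and TJP3 the authors' deposited table gave -1.38 and 1.06.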

How the data were processed

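Total RNA was sequenced from 4 libraries prepared with a TruSeq kit, per the labels' protocols. The submitters' processing notes name HISAT2 2.0.5 and the build hg38. Which program counted reads, whether it used strand, and which annotation it used is not given in sources used here. The authors deposited raw counts per gene and library and, per the file headers, FPKM values. Their deposited log2 fold changes and p-values come from a test the headers do not name, and only the fold changes are printed.

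Genes that reached 1 FPKM in 2 or more libraries entered edgeR 4.0.16 (R 4.3.3) on the counts: quasi-likelihood, TMM factors of 0.977 to 1.02, no covariate, 2 groups, two-sided, Benjamini-Hochberg adjustment over 13079 genes, threshold 0.05. The common biological coefficient of variation was 0.0566. Fold changes carry the standard error and 95% interval of that fit. Ratios of few counts carry exact intervals, and counting intervals cover counting error only. Replicates differed beyond sampling noise (chi-square per degree of freedom 4.75 within WT, 10.6 within the knockout). Coordinates are those of the table, and 99.98% of them equal GENCODE release 29, which gave overlaps and principal transcripts. The local median is that of the 25 tested genes on each side. Simulated data with known changes were used to test the edgeR, DESeq2 and limma FPKM fits and the local median. In the simulated fits only a small share of genes changed, so that they do not test scaling where many genes differ, as here.

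The members and lists were chosen with earlier results of these data known. Genes named are the members, TTC28, up to 4 genes of smallest p per list (or, with fewer than 4 tested, that of most counts), each member's nearest profile and its flanking tested genes, and the pseudogenes. Others were chosen after their values were seen: CLDN12, CLDN15, KRT86, KRT81, KRT83, KRT34, KRT32, PRRX1, CDH1, EPCAM and VIM. Alternatives were median-of-ratios and total-count scaling, DESeq2 1.42.0, filters of 0.1 and 5 FPKM or none, limma 3.58.1 on log2(FPKM + 1), log2(FPKM + 0.1) and log2(TPM + 1), leaving out each library, a replicate block, added pseudogene counts and the local median removed.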

Additional observations from a re-analysis of the deposited data

How the results depend on the processing

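KRT7, KRT8, KRT80, CLDN1 and TJP3 kept their direction and their call under every scaling, tool, pseudocount, left-out library and filter that tested them (KRT7, TJP3 and OCLN had no value at 5 FPKM). With the local median removed, values were -1.93 for KRT7, 0.40 for KRT8, -0.12 for KRT18, 0.06 for KRT80, -1.62 for CLDN1, -0.20 for TJP1, 0.21 for OCLN and -0.26 for ZEB2, so that KRT18 and ZEB2 changed sign; other causes were not tested. KRT18 was at 0.06 on the TPM scale and between 0.19 and 0.26 with a library left out, losing its call without WT replicate 2. TJP1, which did not pass, was at 0.01 with the 5 FPKM filter and between -0.07 and 0.06 with a library left out. OCLN, which did not pass, was at -0.06 with total-count scaling, -0.01 with no filter and with the 0.1 FPKM filter, -0.15 on the TPM scale and between -0.05 and 0.05 with a library left out.

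The number of genes called was 6581, against 4346 with the 5 FPKM filter, which tested fewer genes, and 4854 to 6456 with a library left out. Of called genes 49.9% were higher, against 25.5% on the TPM scale. The type II to type I ratio of the member keratins was 0.626 in WT and 0.792 in the knockout from CPM, which ignores length, and 0.382 and 0.494 per principal transcript length. Same-numbered libraries did not deviate together (correlation -0.0233), which does not settle whether they share a batch. A replicate block gave 7108 calls and left the 6 member calls as they were. Depth limits KRT19, whose counts are too few to show a difference of moderate size.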
